A study of Mus musculus with 30 samples.

Results

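The Hox cluster genes are the 39 genes whose listed symbols join Hox, a cluster letter from a to d and a number. They were taken by symbol from all 30 libraries, out of 25520 symbols in the untreated libraries and 25410 in the hormone libraries. Of the 39, 11 lie in the Hoxa cluster, 10 in Hoxb, 9 in Hoxc and 9 in Hoxd. All libraries came from IDG-SW3, an immortalised mouse cell line made from long bone that turns from osteoblast into osteocyte in culture. The line carries a temperature-sensitive large T antigen driven by an interferon-inducible promoter and a green fluorescent protein under the Dmp1 promoter, so every group shares these transgenes and a single line stands for the tissue. All cells were expanded at 33 °C with 50 U/ml interferon-γ, then moved without interferon to 37 °C and medium with 50 µg/ml ascorbic acid and 4 mM β-glycerol phosphate. The first experiment followed cells given neither hormone nor vehicle, with 3 libraries at each of 6 times, namely day 3, day 7, day 14, day 21, day 28 and day 35 of differentiation (18 libraries). The second gave 100 nM 1,25(OH)2D3, the active form of vitamin D3, or ethanol vehicle during the last 24 h before day 3 or day 35, with 3 libraries per group (12 libraries). The series describes these as biological triplicates, and p-values measure the spread between them.

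Hox genes encode homeodomain transcription factors that give cells their position along the body axis and, later, along the limb. Within a cluster, the genes at the low-numbered end act in anterior structures and those at the high-numbered end in posterior and distal ones. Genes with the same number in different clusters are paralogues. In the mouse limb the high-numbered Hoxa and Hoxd genes pattern the segments from shoulder to digit, while high-numbered Hoxc genes are used mainly in the hindlimb. Adult bone and connective tissue cells are known to keep a Hox pattern that records where they formed.

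Promoter windows were shown for 3 members that were on and 1 that was silent: Hoxa9, with the highest level in untreated cells, Hoxa11 and Hoxd8, which rose with differentiation in both experiments, and Hoxd12, listed at 0 in all 18 untreated libraries. Each is the 250 bases before the RefSeq start on the gene's own strand in GRCm38.p6, with every CG dinucleotide in capitals. The windows lie at chr6:52227371-52227620 (minus strand, Hoxa9), chr6:52245811-52246060 (minus strand, Hoxa11), chr2:74704365-74704614 (plus strand, Hoxd8) and chr2:74674763-74675012 (plus strand, Hoxd12).
Hoxa9: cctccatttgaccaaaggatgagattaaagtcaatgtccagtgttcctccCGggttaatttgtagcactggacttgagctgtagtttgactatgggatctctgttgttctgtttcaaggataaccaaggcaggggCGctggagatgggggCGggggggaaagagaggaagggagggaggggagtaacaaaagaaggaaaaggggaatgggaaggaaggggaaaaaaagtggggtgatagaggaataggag
Hoxa11: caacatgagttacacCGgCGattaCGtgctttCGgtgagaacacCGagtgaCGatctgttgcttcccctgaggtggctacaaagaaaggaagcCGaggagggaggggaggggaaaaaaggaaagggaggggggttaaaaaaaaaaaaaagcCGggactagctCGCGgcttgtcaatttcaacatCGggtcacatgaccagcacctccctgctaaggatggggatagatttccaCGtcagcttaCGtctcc
Hoxd8: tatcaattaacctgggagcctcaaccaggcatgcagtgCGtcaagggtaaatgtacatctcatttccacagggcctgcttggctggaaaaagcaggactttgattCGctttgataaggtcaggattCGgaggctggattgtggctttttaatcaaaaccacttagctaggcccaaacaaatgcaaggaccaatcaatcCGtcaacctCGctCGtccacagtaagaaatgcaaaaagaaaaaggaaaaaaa
Hoxd12: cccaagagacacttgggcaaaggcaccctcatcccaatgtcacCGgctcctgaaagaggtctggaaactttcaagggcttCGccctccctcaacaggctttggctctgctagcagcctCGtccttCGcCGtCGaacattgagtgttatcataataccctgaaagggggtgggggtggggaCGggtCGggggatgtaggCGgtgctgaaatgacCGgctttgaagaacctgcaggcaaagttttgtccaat
The windows held 3 CG dinucleotides at Hoxa9, 13 at Hoxa11, 6 at Hoxd8 and 10 at Hoxd12. Across all 32851 RefSeq windows of this length the median was 6. RefSeq windows were matched by symbol for 22 of the 39 members (24 windows, since Hoxa10 and Hoxd11 had more than 1 start). The 7 windows of the 6 matched members that were on in either experiment held between 3 and 35 CG, with a median of 13. The 17 windows of the other 16 matched members held between 2 and 31, with a median of 12, so CG content did not separate the members that were on from those that were off. The letters TATAAA stood on either strand in 4 of the 24 Hox windows and in 12.4% of all windows. AGGTCA or GGTTCA, half-sites of the kind the vitamin D receptor binds, stood on either strand in 7 of 24 and in 21.5% of all windows. Among the printed windows, Hoxd8 held 1 such match, of AGGTCA, and Hoxa9, Hoxa11 and Hoxd12 held none. A match describes letters only.

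The untreated values are RPKM, reads per kilobase of gene scaled to sequencing depth. The hormone libraries hold whole read counts, with totals from 22062866 to 54325515, and are given as counts or as CPM per kilobase, counts scaled by library size and divided by transcript length in kilobases. The experiments used different library kits, so levels were not compared between them. Osteoblast markers were read beside the label: the summed RPKM of 7 genes went from between 171 and 211 at day 3 to between 511 and 897 at day 35. Abundant genes such as Col1a1, up to 330 RPKM, carry that sum. Runx2, on the same list, reached at most 0.561 RPKM, so the sum does not speak for every marker. The osteocyte list of 5 genes was low in untreated cells, at most 1.38 RPKM in sum, with Fgf23 at 0 throughout. It reached between 81.2 and 132 CPM per kilobase in sum in vehicle cells at day 35. In untreated cells the endothelial gene Cdh5, the macrophage gene Emr1 and the neuronal gene Snap25 were at 0, while Ctsk, listed here as an osteoclast gene, had a mean of 24.1 RPKM at day 3 and 76.0 at day 35. Other members of these lists were above 0 in some untreated library: Kdr reached 0.149 RPKM, Tubb3 0.544, Cd68 0.998 and Acp5 1.27. Of the chondrocyte list, Sox9 reached 13.9 RPKM and Col2a1 6.2, so other lineages were not shown to be absent. The part of these markers in the Hox values was not tested. Some libraries stood apart. The 3 hormone libraries of day 3 and hormone replicate 2 of day 35 carried more reads over olfactory receptor genes, used here as a gauge of background: 0.306 to 0.419 CPM per kilobase on average, against 0.0212 to 0.115 in the other 8. Vehicle replicate 2 of day 3 carried 1514 Hoxc13 counts, against 544 and 795 in the other 2 libraries of its group. Libraries of replicate 1 of the untreated course share 1 sequencing run number, and the other 12 came from 3 other runs.

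The Hox genes that were on sat at a few positions, and in bulk RNA fewer cells of a type and less RNA per cell cannot be told apart. A member was called on in untreated cells when all 3 libraries of at least 1 day reached 1 RPKM, which 9 of 39 did: Hoxa9, Hoxa10, Hoxa11, Hoxa13, Hoxc6, Hoxc10, Hoxc11, Hoxc13 and Hoxd8. In vehicle cells, where the rule was 1 CPM per kilobase and a level above the 95th percentile of olfactory receptor genes in all 3 libraries of a day, 10 were on: Hoxa9, Hoxa10, Hoxa11, Hoxa13, Hoxc10, Hoxc11, Hoxc12, Hoxc13, Hoxd8 and Hoxd9. In both lists 8 members recurred. Of the 16 members of paralogue groups 9 to 13, 7 were on in untreated cells and 9 in vehicle cells. Of the 23 members of groups 1 to 8, 2 and 1 were on. All 4 Hoxa genes from group 9 upward were on in both experiments, and none of the 7 Hoxa genes below. The threshold sets the count: at 0.5 in place of 1, 17 members were on in each experiment, the added ones all from Hoxa and Hoxc. Just inside the limit in untreated cells was Hoxa11, whose lowest library at day 14 had 1.60 RPKM, and just outside were Hoxa5 (lowest library at day 7, 0.884) and Hoxc12 (at day 21, 0.843). In vehicle cells Hoxc10 was just inside (1.10 CPM per kilobase at day 3), and Hoxc4 (0.983) and Hoxc6 (0.957) just outside.

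**Figure D1:**
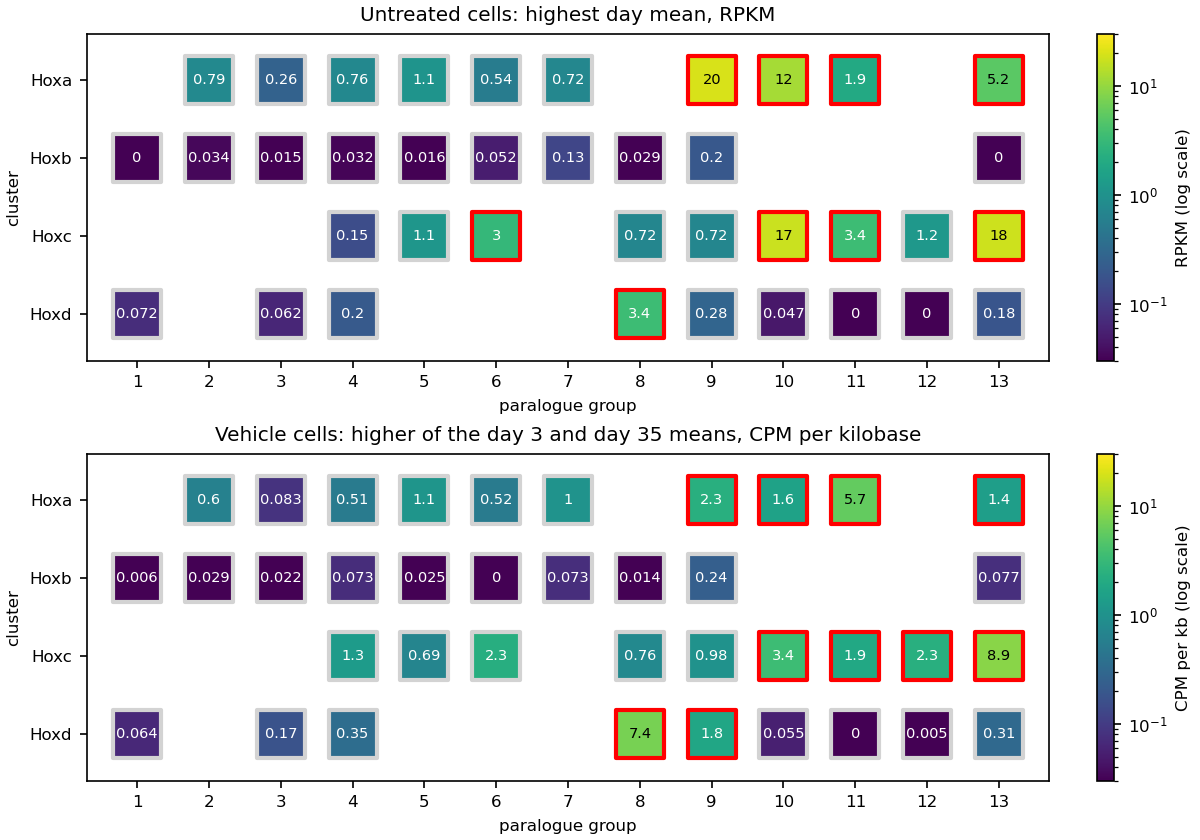
Each square is one of the Hox genes reported, placed by cluster (rows) and paralogue group (columns); colour on a log scale and the printed number give the highest day mean of 3 libraries, in RPKM for untreated cells (top) and CPM per kilobase for vehicle cells (bottom). Red frames mark the 9 and 10 members that were on, which sit mostly in groups 9 to 13 of Hoxa and Hoxc.

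At day 3 the levels of the members that were on, per length, ran from Hoxc13 at 17.6 RPKM ± 4.37 (SD, n = 3) and Hoxa9 at 14.3 ± 4.72 through Hoxc10 at 8.94 ± 1.13 and Hoxa10 at 5.54 ± 0.267 to Hoxd8 at 0.703 ± 0.195. The ranges of Hoxc13 and Hoxa9 overlapped across libraries, as did those of Hoxa9 and Hoxc10, while those of Hoxc10 and Hoxa10 did not. Within each library of day 3 the order was the same: Hoxc13, Hoxa9, Hoxc10, Hoxa10. At day 35 the order began with Hoxa9 at 7.07 RPKM ± 1.49 (SD, n = 3), Hoxc10 at 5.55 ± 1.56 and Hoxa10 at 5.24 ± 1.91. Their ranges overlapped, though Hoxa9 was the highest of them within each library. Hoxc13 came next at 3.43 ± 1.90. The highest single value of any member was 24.6 RPKM, of Hoxa9 at day 14.

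The other 28 members were off in both experiments. Hoxb was off as a whole: its highest value in any untreated library was 0.279 RPKM, of Hoxb9, and its highest in any vehicle library 0.318 CPM per kilobase, again of Hoxb9. Hoxb1, Hoxb13, Hoxd11 and Hoxd12 were listed at 0 in all 18 untreated libraries. The digit end of Hoxd was nearly silent too, with highest untreated values of 0.14 RPKM for Hoxd10 and 0.317 for Hoxd13. Within group 13, therefore, Hoxa13 (up to 8.42 RPKM) and Hoxc13 (up to 21.1) were on, while Hoxb13 and Hoxd13 were off. The low-numbered Hoxa genes and the middle of Hoxc were present at low levels. Hoxa2, Hoxa4 and Hoxa5 were above 0 in all 18 untreated libraries, with highest values from 0.838 to 1.26 RPKM, and so were Hoxc5 and Hoxc9, with highest values of 1.79 and 1.25. Hoxc8, up to 0.961 RPKM, and Hoxa7, up to 0.914, were above 0 in 17. A value of 0 does not show absence, since the read depth of the untreated libraries is unknown. Some genes outside the clusters were high in 1 experiment and low in the other. Men1 reached 15.9 RPKM and 0.0385 CPM per kilobase, and Dmp1 0.556 RPKM and 108 CPM per kilobase. The cause was not tested, so a low value in 1 experiment alone is limited evidence that a gene is silent.

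Over time the make-up of the Hox RNA shifted from Hoxc towards Hoxa and Hoxd. Of the RPKM summed over all 39 members, Hoxc held 55.8% ± 0.696 (SD, n = 3) at day 3 and 37.4% ± 2.76 at day 35. Hoxa went from 42.6% ± 0.573 to 55.8% ± 3.15 and Hoxd from 1.59% ± 0.385 to 6.04% ± 2.23. The libraries of the 2 days did not overlap for any of these 3 clusters. Hoxb held 0% at day 3 and 0.704% ± 0.504 at day 35. Vehicle cells gave the same order of change, in CPM per kilobase: Hoxc held 60.3% ± 14.2 at day 3 and 23.4% ± 4.09 at day 35. There Hoxa went from 28.2% ± 9.98 to 46.0% ± 3.04 and Hoxd from 11.0% ± 5.31 to 29.1% ± 5.16. Groups 9 to 13 together held 90.8% of the untreated sum at day 3 and 83.0% at day 35. Their share of the vehicle sum was smaller, 67.5% at day 3 and 55.0% at day 35.

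To ask which members changed with day, RPKM values were set as log2(RPKM + 0.5) relative to each library's median tested gene and fitted with limma across all 9933 genes that reached 1 RPKM in 3 libraries. Of the 39 Hox genes, 13 passed that filter. With Benjamini-Hochberg adjusted p below 0.05 against day 3, 4 Hox genes were higher and none lower at day 7, where 35.1% of all tested genes were called in either direction, 20.1% as higher and 15.0% as lower. At day 14 the counts were 6 higher and none lower, against 41.0% of all genes called, 22.3% as higher and 18.7% as lower. Day 21 again gave 6 and none, against 48.4%, 26.8% and 21.6%. At day 28, 7 were higher and 1 lower (50.6%, 28.7% and 21.9% of all genes). At day 35, 3 were higher and 1 lower (51.1%, 29.5% and 21.5%). Over all days 7 of 13 differed somewhere (56.1% of all genes). With 13 genes tested the totals in either direction lie near the background of all genes up to day 28 and below it at day 35. Those totals therefore say nothing particular of Hox genes. All calls but 1 up to day 28 were higher, and whether that direction is particular to Hox genes was not tested. A gene such as Hoxc5, which reached 1 RPKM in 3 libraries of later days alone, passed the filter through those days. Their median log2 change was 0.36 at day 7 and 0.37 at day 35, against 0.11 and 0.14 for all tested genes. Scaling matters here: with RPKM as listed, the median tested gene itself moved by -0.69 on the log2 scale at day 35, and Hox calls at that day became 1 higher and 5 lower, where 5.63% of all genes were called higher and 51.5% lower. With the replicate number as a block, day 21 gave 7 calls, adding Hoxc6 (0.37, limma adjusted p = 0.0346), and day 28 gave 9, adding Hoxc11 (-0.56, adjusted p = 0.0372). Same-numbered libraries deviated together up to day 28, though paired cultures and the shared run of replicate 1 cannot be told apart.

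**Figure D2:**
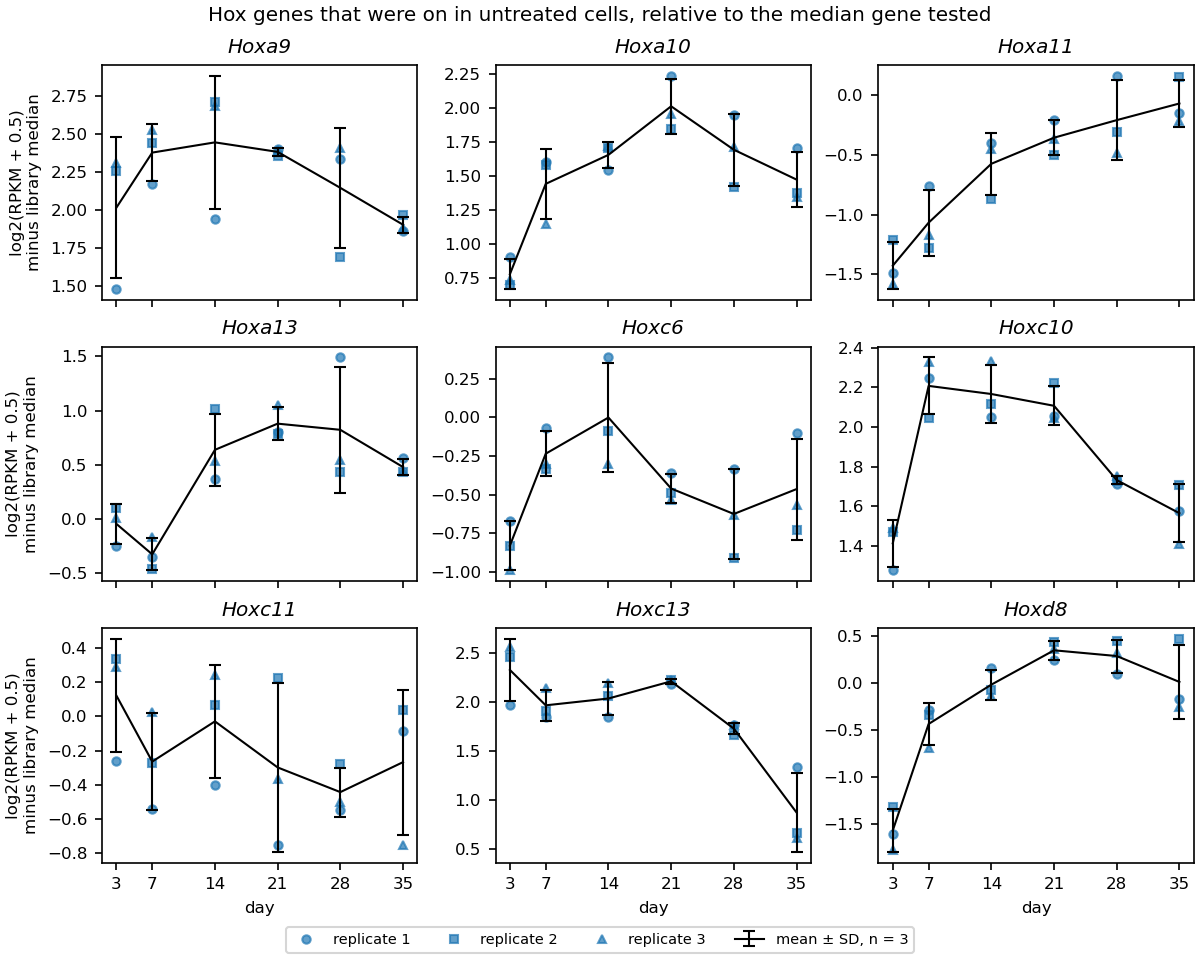
Level of the 9 Hox genes that were on in untreated cells (y axis, log2(RPKM + 0.5) minus the library's median over tested genes) against day of differentiation (x axis). Symbols are the 3 replicate libraries and black lines join means ± SD; Hoxd8 and Hoxa11 rose from day 3, Hoxc10 was highest at days 7 to 21 and Hoxc13 was lowest at day 35.

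Hoxd8 was called higher at every later day. Its RPKM was 0.609, 0.927 and 0.573 at day 3, then 3.22, 3.53 and 3.43 at day 21, and 1.64, 2.36 and 0.844 at day 35. All day 21 libraries lay far above those of day 3, and 1 day 35 library fell back into the day 3 range on this scale. Relative to the median gene Hoxd8 rose by log2 1.13 ± 0.19 (SE) by day 7 and 1.92 ± 0.19 by day 21 (limma adjusted p = 8.74e-07), and stood at 1.58 ± 0.19 at day 35 (adjusted p = 4.83e-06). It was called at each of the 5 later days under all 25 alternatives run. No day 3 library reached 1 RPKM, so Hoxd8 passed the filter through the later days. Within the run that replicate 1 shares, the difference at day 35 was 1.43.

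The Hoxa genes from group 9 upward did not move alike. Hoxa10 had 5.79, 5.26 and 5.58 RPKM at day 3 and 14.3, 10.2 and 11.3 at day 21, without overlap. It rose by log2 1.24 ± 0.17 by day 21 (limma adjusted p = 1.72e-05) and by 0.70 ± 0.17 at day 35, a direction that turned to -0.13 with RPKM as listed. Hoxa10 has 2 rows in the files and overlaps Hoxa9 transcripts, so reads of the pair may be shared. Hoxa11, which patterns the forearm and shank, had 0.703, 1.04 and 0.722 RPKM at day 3 and 1.66, 1.79 and 0.877 at day 35. These overlap as listed, and relative to the median gene they do not. Hoxa11 rose on that scale at days 14 to 35, by 0.85 ± 0.20 at day 14 and 1.35 ± 0.20 at day 35 (limma adjusted p = 3.38e-05), and the day 35 call was lost with RPKM as listed (0.53, adjusted p = 0.0898). The replicate 1 run gave 1.33 at day 35. The antisense gene Hoxa11as went from 1.80 ± 0.498 RPKM at day 3 to 3.42 ± 0.616 at day 21 (SD, n = 3), and strand use in counting is not given in the sources used here, so the pair cannot be told apart.

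Hoxa13, the hand and foot gene, had 2.34, 3.32 and 3.19 RPKM at day 3 and 4.98, 4.59 and 5.82 at day 21, which did not overlap. It was higher by 0.92 ± 0.23 at day 21 (limma adjusted p = 0.00357) and passed at days 14, 21 and 28, though not with RPKM as listed. The day 14 call held under 19 of 25 alternatives and was lost with sequencing run in the model (0.74, adjusted p = 0.067). At day 28 replicate 1 stood high, with 8.42 RPKM against 2.59 and 3.35. Hoxa9, a gene also known for its part in blood progenitors, passed at no day. Its libraries ranged from 8.93 to 17.6 RPKM at day 3, from 10.5 to 24.6 at day 14, and at day 35 none exceeded 8.26. Replicate 1 was the lowest of its group at days 3, 7 and 14. The difference at day 35 was -0.11 ± 0.24 (adjusted p = 0.718), and -0.93 with RPKM as listed (adjusted p = 0.0239). Of the low Hoxa genes, Hoxa5 passed at day 28 (0.67 ± 0.23, limma adjusted p = 0.0216), a call that held under 20 of 25 alternatives, and Hoxa2 passed at no day.

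In Hoxc the genes at the end of the cluster took different courses. Hoxc10, a hindlimb gene, had 7.67, 9.36 and 9.80 RPKM at day 3 and 16.7, 15.0 and 20.0 at day 7, without overlap, and 6.67, 6.21 and 3.77 at day 35. It was higher by 0.79 ± 0.12 at day 7 (limma adjusted p = 0.000132) and not called at day 35 (0.15 ± 0.12). With RPKM as listed it was called lower at day 35 (-0.67, limma adjusted p = 0.0229), where 51.5% of all genes were called lower. Its small difference at day 28, 0.32 ± 0.12 (adjusted p = 0.041), became -0.08 with RPKM as listed. Hoxc6 was higher at days 7 and 14, with 1.62, 1.50 and 1.34 RPKM at day 3 and 3.26, 3.11 and 2.63 at day 14 (0.83 ± 0.20, limma adjusted p = 0.00387). The groups did not overlap. Hoxc5, at lower levels, passed at days 21 and 28. The first of these calls held under 10 of 22 alternatives and the second under 18.

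Hoxc13, known for its part in hair and nail, was the 1 member called lower at day 28 and day 35 relative to the median gene. It had 12.7, 19.1 and 21.1 RPKM at day 3, between 13.4 and 13.8 in all 3 libraries of day 21, and 5.58, 2.77 and 1.95 at day 35. All 3 day 35 libraries lay below the day 3 range. It fell by 0.60 at day 28 (SE 0.19, limma adjusted p = 0.0135) and by 1.46 at day 35 (SE 0.19, adjusted p = 7.9e-06) on the log2 scale. The day 35 call held under all 25 alternatives. The size differed between libraries: within the replicate 1 run the difference was -0.63, against -1.79 and -1.94 between same-numbered libraries of replicates 2 and 3. Hoxc11 and Hoxc12 were called at no day in the fit relative to the median gene and without the block. Hoxc11 had 2.32, 3.99 and 3.96 RPKM at day 3 and 1.76, 1.61 and 0.452 at day 35 (-0.39 ± 0.27, limma adjusted p = 0.241). With RPKM as listed, Hoxc11 was called lower at day 28 (-0.96, limma adjusted p = 0.0286) and day 35 (-1.21, adjusted p = 0.0051). Hoxc12 was called lower at day 35 (-0.57, adjusted p = 0.0496) in that setting, where 51.5% of all genes were lower.

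The vehicle libraries allowed day 35 to be set against day 3 in separate cultures, fitted on counts with edgeR's quasi-likelihood test over 20055 genes, of which 28 were Hox genes. Here 5 Hox genes were higher and 2 lower at an adjusted p below 0.05, where 29.9% of all genes were called, 15.5% as higher and 14.5% as lower. Both experiments called Hoxa11, Hoxd8 and Hoxc13, and with the same sign. These 3 were 75% of the 4 calls in untreated cells and 42.9% of the 7 in vehicle cells, of which Hoxa7, Hoxb9 and Hoxd9 were not tested in untreated cells. Among the 13 Hox genes tested in both, the same 3 were 75% of the 4 vehicle calls. Over the 9372 genes tested in both, 2657 were called with the same sign, 55.4% of the untreated and 65% of the vehicle calls among them. The sizes were not tested against each other, since kit and unit differ.

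In vehicle cells Hoxa11 had 225, 172 and 241 counts at day 3 and 493, 326 and 318 at day 35, or 2.17 ± 0.411 and 5.71 ± 0.580 CPM per kilobase (SD, n = 3). It rose by log2 1.40 ± 0.22 (edgeR adjusted p = 0.00015). Its 2 groups did not overlap. Hoxd8 went from 402, 317 and 213 counts to 613, 548 and 501, with mean CPM per kilobase of 2.76 and 7.36 and again no overlap, a rise of 1.41 ± 0.24 (adjusted p = 0.000385). Hoxc13 went from 544, 1514 and 795 counts to 164, 65 and 74, a fall of 2.68 on the log2 scale (SE 0.36, edgeR adjusted p = 3.41e-05). Without vehicle replicate 2 of day 3 the Hoxc13 change was -2.21 (adjusted p = 6.86e-05).

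The other 4 calls in vehicle cells were Hoxd9, Hoxa7, Hoxb9 and Hoxc6. Hoxd9, which acts in the upper limb segment with its paralogues, had 15, 6 and 5 counts at day 3 and 92, 127 and 104 at day 35, a rise of 4.21 ± 0.73 (edgeR adjusted p = 0.000391). In untreated cells Hoxd9 was below the filter, at most 0.49 RPKM. Hoxa7 had 15, 27 and 12 counts and then 86, 47 and 50, a rise of 2.31 ± 0.53 (adjusted p = 0.00337). Hoxb9 had 0, 0 and 6 counts and then 28, 20 and 7, and its call (adjusted p = 0.0382) was lost under 10 of 17 alternatives, the replicate block among them (adjusted p = 0.0604). Hoxc6 fell by 2.49 (SE 0.70, adjusted p = 0.0134), with 62, 270 and 144 counts at day 3 and 36, 16 and 7 at day 35. Without vehicle replicate 2 of day 3 that call was lost (-1.90, adjusted p = 0.0779), as it was without vehicle replicate 2 (adjusted p = 0.0594) or 3 (adjusted p = 0.0734) of day 35. untreated cells gave 0.37 ± 0.20 for Hoxc6, with no call. Hoxa9 again did not pass, at -0.13 ± 0.33 (edgeR adjusted p = 0.805), nor did Hoxa10 (0.56 ± 0.31, adjusted p = 0.193). Also without a call were Hoxc10 (-1.26 ± 0.56, edgeR adjusted p = 0.103), Hoxc11 (-0.96 ± 0.37, adjusted p = 0.0633) and Hoxc12 (-1.35 ± 0.55, adjusted p = 0.0771).

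**Figure D3:**
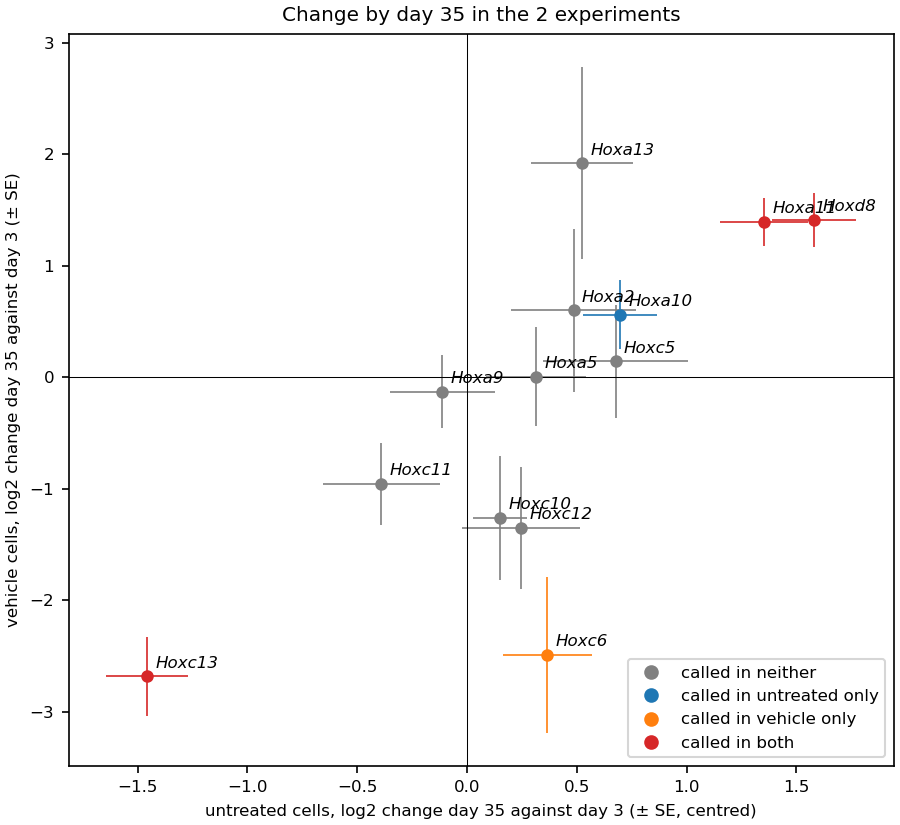
Log2 change from day 3 to day 35 in untreated cells (x axis, limma, relative to the median gene) against that in vehicle cells (y axis, edgeR) for the 13 Hox genes tested in both, with bars of ± SE. Red points mark Hoxa11, Hoxd8 and Hoxc13, called in both; Hoxa10 was called in untreated cells and Hoxc6 in vehicle cells.

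Hormone was compared with vehicle at each day in the same edgeR fit. At day 3, 7 of the 28 Hox genes tested were higher with hormone and none lower, where 20.5% of all genes were called, 11.4% as higher and 9.09% as lower. Markers of fat cells moved in the same comparison: 3 of 4 were tested and all 3 were higher, with a median log2 change of 3.84. Their summed level ran from 5.90 to 9.51 CPM per kilobase with vehicle and from 8.72 to 154 with hormone, where replicate 3 had 115 of Fabp4 against 0.904 and 1.17 in the other replicates. Without that library 2 Hox calls were left, Hoxa7 and Hoxa11; the part of fat cell RNA in the Hox values was not tested. Scaling by library totals in place of TMM moved the median change of all genes from 0.26 to 0.65 and the split of calls over all genes from 2278 higher and 1824 lower to 4228 and 594. The 7 were Hoxa7, Hoxa9, Hoxa10, Hoxa11, Hoxb9, Hoxc8 and Hoxd10, of which Hoxd10 passed the count filter through hormone libraries alone. The day 3 hormone libraries are also those with high olfactory receptor reads, and their 95th percentile of olfactory genes lay between 0.887 and 1.15 CPM per kilobase, against 0.159 to 0.255 in the day 3 vehicle libraries. Once each library's background per kilobase was subtracted, 4 of 26 Hox genes tested were called, all higher: Hoxa7, Hoxa9, Hoxa10 and Hoxa11. Over all genes that setting called 15.6%, 7.87% as higher and 7.69% as lower. The Hox total was near the share of all genes called in either direction, though all 4 Hox calls were higher. Whether that direction is particular to Hox genes was not tested.

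Hoxa11 had 287, 344 and 369 counts with hormone against 225, 172 and 241 with vehicle, or 4.42, 4.26 and 4.43 CPM per kilobase against 2.40, 1.70 and 2.42. The groups did not overlap. It was higher by log2 1.01 ± 0.22 (edgeR adjusted p = 0.00601) and stayed called under all 17 alternatives, at 1.19 ± 0.20 after background was subtracted. Hoxa10 had 1.81, 2.55 and 3.54 CPM per kilobase against 1.35, 0.906 and 1.00, without overlap, and was higher by 1.28 ± 0.31 (adjusted p = 0.0131). Its call was lost without vehicle replicate 3 (adjusted p = 0.0569) or hormone replicate 3 of day 3 (adjusted p = 0.0795).

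Hoxa9 had 3.83, 3.92 and 6.19 CPM per kilobase with hormone against 3.12, 1.11 and 2.72 with vehicle. The groups did not overlap, and the difference was 1.00 ± 0.33 (edgeR adjusted p = 0.0437). That call was lost under 10 of 17 alternatives, among them leaving out vehicle replicate 2 or 3 or any hormone replicate of day 3 (adjusted p from 0.0541 to 0.169). Without vehicle replicate 2, where Hoxa9 was lowest, the difference was 0.66 (adjusted p = 0.0937). Hoxa7 had 0.982, 0.804 and 1.23 CPM per kilobase with hormone and 0.182, 0.303 and 0.137 with vehicle, a difference of 2.27 ± 0.52 (adjusted p = 0.00972) called under all 17 alternatives. With hormone, 1 of the 3 libraries exceeded its own 95th percentile of olfactory genes.

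The remaining 3 calls were lost once background was subtracted. Hoxd10 had no count in the 3 vehicle libraries of day 3 and 22, 42 and 54 with hormone. Its vehicle counts at day 35 were 0, 6 and 2, so it entered the test only through hormone libraries, where it was high. Set against a floor of 3 counts over the vehicle group of day 3 Hoxd10 was at least 50.7-fold higher. Yet its 0.427 to 0.816 CPM per kilobase lay below the 95th percentile of olfactory genes in every hormone library of day 3. Hoxb9, at 30, 29 and 48 counts with hormone, lay below it as well. As a cluster Hoxb had 0.122 to 0.178 CPM per kilobase with hormone, under the mean of the olfactory genes in the same libraries, and none of its 10 members passed the 95th percentile there. Hoxc8, at 1.90 to 2.20 CPM per kilobase, was above it, and its adjusted p after subtraction was 0.0568. Without vehicle replicate 2 of day 3 the Hoxc8 difference was 2.42 (adjusted p = 0.00867), while without any 1 of the other 5 libraries of day 3 its call was lost (adjusted p from 0.0737 to 0.101).

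**Figure D4:**
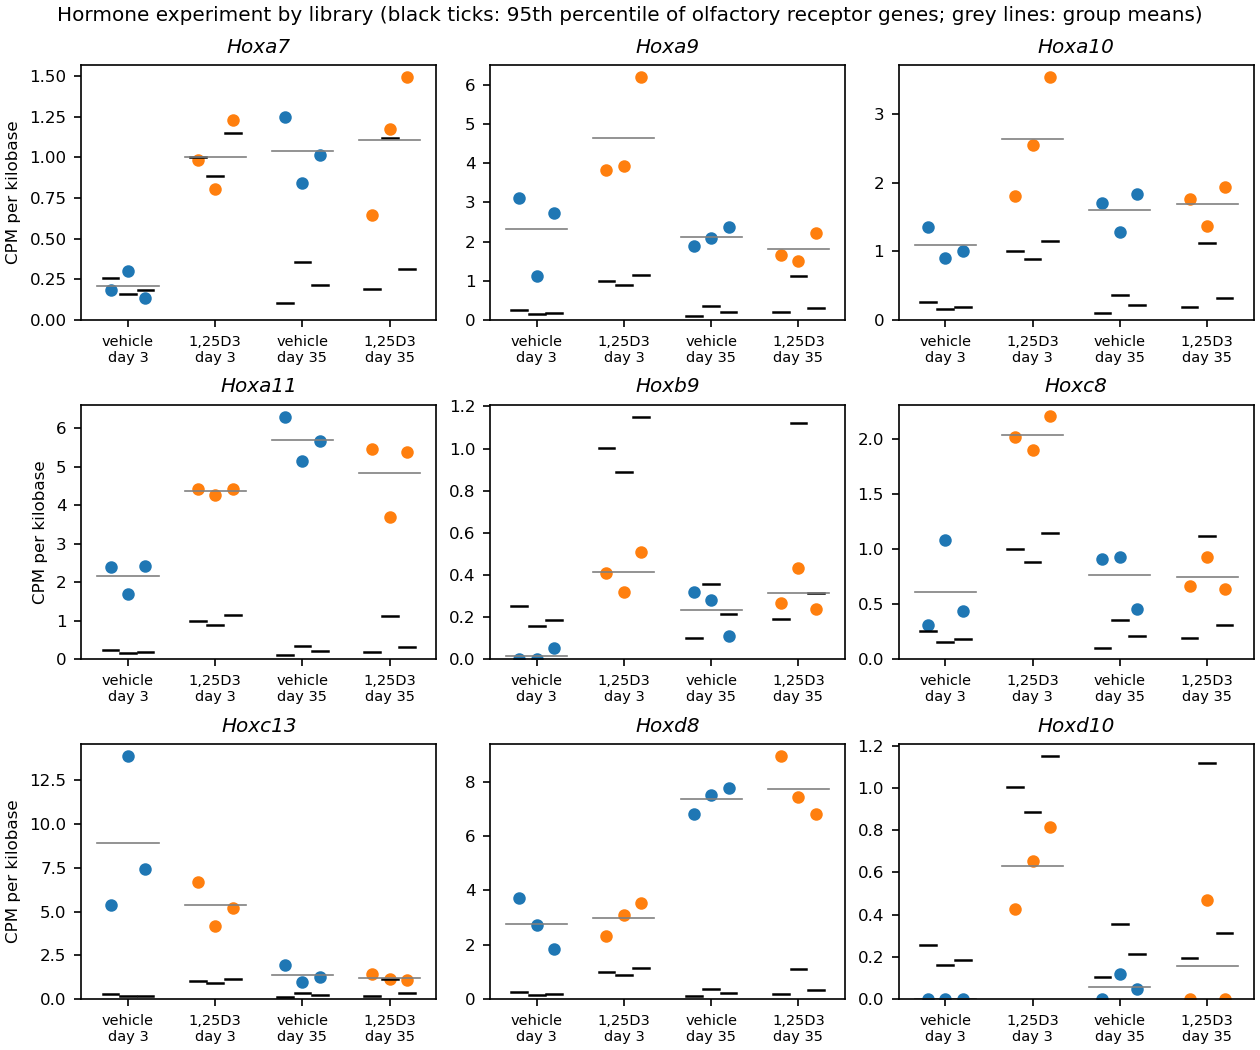
Level of 9 Hox genes (y axis, CPM per kilobase) in each of the 12 libraries of the hormone experiment, by group (x axis); blue points are vehicle and orange points hormone libraries, grey lines are group means and black ticks give each library's 95th percentile of olfactory receptor genes. With hormone at day 3, Hoxa9, Hoxa10 and Hoxa11 lay above the ticks and Hoxb9 and Hoxd10 below them.

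At day 35 no Hox gene was called with hormone. EdgeR's quasi-likelihood test called 0 of 28, and 0 at an unadjusted p below 0.05, with a lowest unadjusted p of 0.0865, while 4.56% of all genes were called, 2.41% as higher and 2.14% as lower. DESeq2 also called 0. Hoxa11 had 5.47, 3.70 and 5.37 CPM per kilobase with hormone and 6.30, 5.14 and 5.68 with vehicle, which overlap, a difference of -0.23 ± 0.21 (adjusted p = 0.718). Hoxd8 had a mean of 7.72 ± 1.10 with hormone (SD, n = 3) and 7.36 with vehicle, which overlap (0.07 ± 0.24). In hormone cells Hoxc13 had 5.35 ± 1.26 CPM per kilobase at day 3 and 1.22 ± 0.190 at day 35 (SD, n = 3), without overlap; that difference was not tested.

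The difference between the 2 hormone responses was tested as an interaction. It passed for 1 of 28 Hox genes, Hoxa11, where 7.08% of all genes passed, 4.14% as higher and 2.94% as lower. The response of Hoxa11 at day 35 minus that at day 3 was -1.24 ± 0.30 on the log2 scale (edgeR adjusted p = 0.0212). The call was lost without hormone replicate 3 of day 3 (adjusted p = 0.054) or without any of the 3 vehicle replicates of day 35 (0.0514 to 0.0668), at -1.12 to -1.23. For Hoxa10 the difference was -1.20 ± 0.44 (adjusted p = 0.116) and for Hoxa9 -1.24 ± 0.46 (adjusted p = 0.122).

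Genes around the Hox system were read from 4 lists. Among 9 cofactors that bind DNA with Hox proteins, 3 were tested in untreated cells. At day 35, 2 were higher and 1 lower, where 29.5% of all genes were called higher and 21.5% lower. Pbx2 was higher (1.00 ± 0.32, limma adjusted p = 0.0146) and Pknox1 lower (-0.39 ± 0.13, adjusted p = 0.0192). With RPKM as listed Pbx2 came to 0.18 and was not called. Pbx2 rose in vehicle cells as well (1.05 ± 0.16, edgeR adjusted p = 0.000108) and was higher with hormone at day 3 (1.23 ± 0.16, adjusted p = 0.00011). Meis1 and Meis2, partners of the high-numbered Hox proteins, stayed at or below 0.387 and 0.558 RPKM in untreated cells. In the hormone experiment Meis1 reached 6.49 CPM per kilobase and Meis2 was at 0.

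Of 20 limb position and pattern factors, 11 were tested in untreated cells, and at day 35 none was higher and 6 were lower, with a median of -0.45 against 0.14 for all tested genes, of which 29.5% were called higher and 21.5% lower. With RPKM as listed none was higher and 9 were lower, where 5.63% of all genes were called higher and 51.5% lower. The median was then -1.27 against -0.69. Pitx1, which specifies the hindlimb, was on at 7.07 RPKM ± 0.346 (SD, n = 3) at day 3, 21.7 ± 2.36 at day 7 and 4.54 ± 0.297 at day 35. The forelimb factor Tbx5 was at 0 in all 18 untreated libraries and the hindlimb factor Tbx4 reached at most 0.158 RPKM. In the hormone experiment it was the reverse, with Tbx5 at most 0.322 CPM per kilobase and Tbx4 at 0. Twist1, at 118 RPKM at day 3 the highest of the list, fell by 0.45 (SE 0.11, limma adjusted p = 0.00384), and Gli3, a mediator of hedgehog signals, by 1.90 (SE 0.20, adjusted p = 1.04e-06). In vehicle cells 2 of 16 were higher and 6 lower at day 35, where 15.5% of all genes were called higher and 14.5% lower. Gli3 and Twist1 were again among the lower. With hormone at day 3, 4 were higher, Pitx1 among them (0.99 ± 0.23, edgeR adjusted p = 0.00887), and 4 lower, among them Twist1 (-1.04 ± 0.16, adjusted p = 0.000403), where 11.4% of all genes were called higher and 9.09% lower. After background subtraction 2 were higher and 5 lower, Pitx1 and Twist1 still among them, where 7.87% and 7.69% of all genes were called.

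Polycomb proteins keep Hox genes silent and Trithorax proteins keep them active. Of 21 such genes, 15 were tested in untreated cells, with 4 higher and 5 lower at day 35, where 29.5% and 21.5% of all genes were called. With RPKM as listed 1 was higher and 11 were lower, against 5.63% and 51.5% of all genes. Ring1 rose by 1.21 ± 0.23 (limma adjusted p = 0.0004), a call that was lost with RPKM as listed (0.39), while Suz12 fell by 1.18 (SE 0.21, adjusted p = 0.000174) and Kdm6a by 0.83 (SE 0.15, adjusted p = 0.00024). Suz12 was at 0 CPM per kilobase in every library of the hormone experiment, so its fall could not be checked there. In vehicle cells 4 of 18 were higher and 4 lower, where 15.5% and 14.5% of all genes were called. Ring1 was among the higher (0.96 ± 0.30, edgeR adjusted p = 0.0233) and Phf19 among the lower (-3.82 ± 0.48, adjusted p = 2.17e-05). Of 22 other genes in or beside the clusters, 11 are listed in the untreated files and 7 were tested. At day 35 4 were higher and none lower, where 29.5% and 21.5% of all genes were called. The 4 were Smug1, Hoxa11as, Hibadh and Skap2, with Smug1, beside Hoxc, at 1.17 ± 0.24 (limma adjusted p = 0.000637). With RPKM as listed none of these 4 was called, and Hibadh (-0.22) and Skap2 (-0.33) changed sign. Lnp, beside Hoxd, had the highest level, up to 34.8 RPKM, and did not pass (-0.02 ± 0.30). In the hormone experiment Lnp reached at most 0.125 CPM per kilobase. Vehicle cells gave 5 higher and none lower of 8, these 4 and Calcoco1, where 15.5% and 14.5% of all genes were called. Evx1 and Evx2, the homeobox genes at the ends of Hoxa and Hoxd, reached at most 0.114 and 0 RPKM.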

How the data were processed

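Per the submitters' processing notes, TopHat and mm9 were used. The counting and RPKM steps, the annotation, and whether strand was used are not given in the sources used here. The authors deposited RPKM per gene row for the 18 untreated libraries (directional Illumina kits, per the labels' protocols) and, for the 12 hormone libraries (ScriptSeq v2 kit), whole-number counts in files named as RPKM, which were treated as counts because they hold only whole numbers with differing totals. Where a symbol had several rows, the row with the highest mean RPKM was used and counts were summed.

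Untreated values were fitted with limma 3.58.1 (R 4.3.3, trended variance, 12 residual degrees of freedom) on log2(RPKM + 0.5) centred on each library's median tested gene. Counts were fitted with edgeR 4.0.16 (TMM, filterByExpr, quasi-likelihood, 8 residual degrees of freedom). P-values were Benjamini-Hochberg adjusted over all genes tested. Both fits were tested on simulated data. Transcript lengths came from GENCODE vM21, matched for all 39 members. Background was the mean of 1122 olfactory receptor genes per kilobase. Promoter windows came from RefSeq (GRCm38.p6). Alternatives were RPKM as listed, other pseudocounts, no filter, summed rows, sequencing run, replicate block, DESeq2 1.42.0, library totals, background subtraction, other thresholds and each library left out.

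Same-numbered untreated libraries deviated together: the correlations of their deviations were 0.181 to 0.584 for days 7 to 28 against day 3, and 0.0578 at the lowest for day 35, so the numbers were taken to link libraries up to day 28. Replicate 1, whose libraries share 1 sequencing run, gave the highest at each day, 0.469 to 0.584 up to day 28. Paired cultures and a shared run therefore cannot be told apart. In the hormone experiment the correlations ran from -0.192 to 0.526. The members and gene lists were chosen with earlier results of these data known. Members that were on are named with their values; of the lists, up to 4 members are named, those with the smallest adjusted p and the highest level, and Tbx4, Tbx5, Meis1, Meis2, Evx1, Evx2 and Pitx1 were added after their values were seen. Overlapping and antisense Hox transcripts make single values uncertain. Counting error alone underlies the floor of 3 counts. Hotair, Hottip and Hotairm1 were not analysed here, and some genes of the lists are not reported here by name.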

Additional observations from a re-analysis of the deposited data

Results flagged for a closer look

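The hormone response of Hoxa11 differed between the days by a test of the difference itself. Its response at day 35 minus that at day 3 was -1.24 on the log2 scale (SE 0.30, edgeR's quasi-likelihood test, adjusted p = 0.0212). The response was positive at day 3 (1.01) and -0.23 at day 35. The day 3 hormone libraries carried more olfactory receptor reads than the vehicle libraries. With that background subtracted the difference was -1.39 (SE 0.28, adjusted p = 0.00709).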

How the results depend on the processing

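Of the tests of single Hox genes called above, repeated under each alternative, 1017 kept their direction and call, 105 lost the call and 2 turned: with RPKM as listed, Hoxc10 at day 28 came to -0.0798 (adjusted p = 0.825) and Hoxa10 at day 35 to -0.13 (adjusted p = 0.713). Counts of called Hox genes with RPKM as listed were 3 at day 21, 4 at day 28 and 11 over all days. Of all genes tested, 37%, 41.5% and 72.5% were called there. Without the filter on low values, 35 members were tested and 17 were called at day 21, 20 at day 28, 22 at day 35 and 25 over all days. By construction, a gene listed at 0 then takes the opposite of the shift in the library medians as its change. The share of all genes called without the filter is not given here, so these counts are not read as a result about Hox genes. The interaction gave 3 calls with DESeq2 and 4 with library totals, and the hormone comparison at day 3 gave 4 after background subtraction. The number of members on was 17 at 0.5 RPKM, 17 at 0.5 CPM per kilobase and 3 at 2 CPM per kilobase. Causes were not tested unless stated. Leaving out 1 library gave 3 to 5 calls at day 7, 5 to 7 at day 14, 5 to 6 at day 21, 5 to 8 at day 28, 4 to 5 at day 35 and 6 to 8 over all days. It gave 2 to 10 for hormone at day 3, 0 to 0 at day 35, 5 to 8 for vehicle day 35 against day 3 and 0 to 4 for the interaction. Members on then numbered 10 to 11 in untreated and 12 to 13 in vehicle cells, since fewer libraries had to pass. Counts moved by over 1.5 times without untreated replicate 2 of day 28 (5 at day 28). For hormone at day 3 this held without vehicle replicate 3 (3) or hormone replicates 1 (4), 2 (3) and 3 (2) of day 3. For the interaction it held without vehicle replicates 2 (4) and 3 (2) of day 3, hormone replicate 3 of day 3 (0), any vehicle replicate of day 35 (0) and hormone replicate 2 of day 35 (4). With the replicate block, calls were 4, 6, 7, 9 and 5 from day 7 to day 35, 7 and 0 for hormone at days 3 and 35, 6 for vehicle day 35 against day 3, where Hoxb9 was lost, and 1 for the interaction; in the hormone experiment and at day 35 the numbers are shared labels only.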
